A study of Mus musculus with 6 samples.

Results

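Transcript abundance is described here for 7 nuclear receptor coregulators in neuromesodermal progenitors (NMPs) treated for 2 h with retinoic acid (RA). The genes were chosen by symbol, as Nrip1, Ncor1, Ncoa1, Ncoa2, Ncoa3, Med1 and Carm1, from the 20631 genes listed for each sample. No value entered this rule, but earlier results of these data were known when genes were chosen. All 7 had enough reads to be tested, as did 15143 genes in all. The 7 genes have 13 RefSeq transcripts, whose estimated counts and RPKM values (reads scaled by transcript length and by the mapped reads of the sample) were summed per gene.

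Coregulators are proteins that carry the signal of a hormone or vitamin receptor to chromatin and RNA polymerase. RA receptors bind DNA as heterodimers with retinoid X receptors. Without ligand they hold corepressors such as NCOR1, which bring histone deacetylases, and with RA bound the receptor changes shape and takes up coactivators in their place. The p160 coactivators NCOA1, NCOA2 and NCOA3 recruit the acetyltransferases CREBBP and EP300 and the arginine methyltransferase CARM1, and MED1 connects the receptor to the Mediator complex. NRIP1 (also called RIP140) binds the ligand-bound receptor through the same type of motif as coactivators do but represses transcription, and its gene is a known target of several nuclear receptors.

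The NMPs, caudal progenitors that give rise to spinal cord and presomitic mesoderm, were derived from mouse ESCs with 2 days of bFGF and 1 day of bFGF with the WNT agonist CHIR99021. The factors were then withdrawn and cells were kept for 2 h with the DMSO vehicle, 25 nM RA or 1 µM RA, with 2 samples per condition. The labels give the strain of the ESCs as 129 R1 and the methods give C57BL/6. The duplicates came from separate culture dishes and are called technical replicates in the methods, so that p-values measure only the spread between dishes of one experiment.

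The libraries held 31753556 to 42029348 estimated counts each. The response to RA was seen in its known targets. Rarb, encoding an RA receptor, rose by 4.53 (SE 0.19) on the log2 scale with 25 nM RA, and Cyp26a1, encoding the enzyme that degrades RA, had an RPKM of 52.43 ± 0.239 in DMSO, 177.7 ± 0.00212 at 25 nM and 277.7 ± 8.17 at 1 µM (SD, n = 2). The NMP label was checked against marker genes. Summed over 5 NMP markers, RPKM ranged from 477.0 to 489.0 in DMSO, from 520.9 to 532.7 at 25 nM and from 509.3 to 527.5 at 1 µM. The members did not move together: T, most of the sum with a mean of 375.2 in DMSO, was not called at either dose. Nkx1-2 (39.11 in DMSO, 79.55 and 77.7 with RA) and Sox2 (5.204, 15.39 and 16.3) were called higher at both. Fgf8 (58.35, 50.73 and 48.99) was called lower at both, at 25 nM not with limma or without 25 nM RA replicate 2. Cdx2 (5.094, 6.039 and 5.185) was called higher at 25 nM only, and not there with DESeq2 or limma. Between the doses themselves Cdx2 was not called (log2 -0.22, edgeR adjusted p = 0.167). Of the markers of other cell types, none examined was at 0 in every sample. Pluripotent cell markers summed to between 458.9 and 495.3 over the 6 samples, mostly from Pou5f1. Committed neural markers were at 11.89 to 11.93 in DMSO, 11.2 to 11.89 at 25 nM and 10.2 to 10.6 at 1 µM. Nearly all of that sum was Tubb3, called lower at 1 µM (log2 -0.21, edgeR adjusted p = 0.0174) and not at 25 nM. The Tubb3 call was lost under 3 of 16 alternatives, DESeq2 among them. Sox1, Pax6 and Neurog2 had mean RPKM of 0.2368, 0.05239 and 0.03694 in DMSO. Endoderm markers were at 35.99 to 36.89 in DMSO, 29.02 to 29.26 at 25 nM and 26.94 to 28.26 at 1 µM. That sum follows Sox17 (means of 6.756, 4.501 and 3.435) and Foxa2 (14.42, 11.14 and 9.778), both called lower at both doses. Gata4 was called at neither dose. Gata6 was called lower at both by edgeR, at 1 µM close to the threshold (edgeR adjusted p = 0.099). Of 16 alternatives, its call was lost under 5 at 25 nM and 10 at 1 µM. DESeq2, limma and other edgeR fits were among them at both doses. Presomitic mesoderm markers were at 36.06 to 36.12 in DMSO, 25.15 to 27.94 at 25 nM and 20.41 to 22.26 at 1 µM. That sum follows Msgn1 and Tbx6, both called lower at both doses, whereas Meox1, at a mean RPKM of 0.1019 in DMSO, was called higher at both (log2 1.91 and 2.68). The endoderm and presomitic mesoderm sums were lower at both doses and the neural sum was lower at 1 µM. The part of these sums in the results for the coregulators was not tested. In bulk RNA, fewer cells of a type and less RNA per cell cannot be told apart.

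Nrip1 has a single RefSeq transcript in the data, NM_173440, at chr16:76290862-76373049 on the minus strand of mm10, with 4 exons and the whole coding sequence of 3483 bases in 1 of them. Because it was the coregulator that changed most, its promoters are shown. RefSeq (GRCm38.p6) gives 2 starts, each printed from 250 bases before to 50 bases after the start, 5′ to 3′ on the minus strand. Capitals mark the half-sites found when both strands were searched for 4 forms of the RA response element half-site. TGAACC is the GGTTCA form read on the other strand.
Nrip1, distal start, chr16:76373778-76374077: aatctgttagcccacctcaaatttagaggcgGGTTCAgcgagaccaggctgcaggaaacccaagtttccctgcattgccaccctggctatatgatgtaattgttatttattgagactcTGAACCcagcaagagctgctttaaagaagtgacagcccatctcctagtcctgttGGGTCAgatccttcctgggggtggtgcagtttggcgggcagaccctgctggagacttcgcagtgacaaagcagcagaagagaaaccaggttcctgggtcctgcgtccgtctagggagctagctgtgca
Nrip1, start of NM_173440, chr16:76373000-76373299: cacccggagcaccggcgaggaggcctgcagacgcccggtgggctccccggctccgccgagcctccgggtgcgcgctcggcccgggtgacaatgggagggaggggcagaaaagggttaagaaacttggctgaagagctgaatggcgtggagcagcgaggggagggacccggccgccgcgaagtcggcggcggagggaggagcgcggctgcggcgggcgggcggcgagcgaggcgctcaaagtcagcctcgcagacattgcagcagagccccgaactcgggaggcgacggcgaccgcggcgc

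The distal window held 3 half-sites and the window of NM_173440 held 0. At least 1 of the 4 forms occurs in 43.7% of the 32851 promoters of the same length, with AGGTCA in 16.3%, AGTTCA in 14.0%, GGGTCA in 13.7% and GGTTCA in 10.4%. The share of promoters with 3 or more half-sites was not counted, so that how usual the distal window is was not tested. Neither Nrip1 window held the half-sites as a direct repeat with a spacing of 1, 2 or 5 bases, arrangements found in 0.222%, 0.268% and 0.0974% of all promoters. The 2 windows differ in base composition, with 73.3% GC and 40 CpG dinucleotides at the start of NM_173440 and 52.7% GC and 6 CpG dinucleotides at the distal start. The table of promoters matched 4 of the 7 genes with 6 windows. Of the others, the Med1 and Ncoa1 windows and 1 of the 2 Ncor1 windows held 0 half-sites, and the other Ncor1 window held 1. Ncoa2, Ncoa3 and Carm1 were not among the genes matched. A match of letters is a description and no binding was measured.

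Nrip1 rose with both doses of RA and was the coregulator with the largest change of the 7. Its RPKM was 2.757 and 2.563 in DMSO, 7.026 and 7.081 at 25 nM and 8.109 and 7.931 at 1 µM. All 4 RA-treated samples lay above both DMSO samples, and both samples with 1 µM RA lay above both with 25 nM RA. The estimated counts behind these values were 643 and 491 in DMSO, 1224 and 1551 at 25 nM and 1594 and 1579 at 1 µM. With 25 nM RA the log2 fold change was 1.40 (SE 0.067), or 2.64-fold with a 95% interval of 2.41 to 2.89 (edgeR likelihood ratio test, Benjamini-Hochberg adjusted p = 1.01e-96). With 1 µM RA it was 1.58 (SE 0.066), or 2.99-fold with an interval of 2.73 to 3.28 (edgeR, adjusted p = 2.51e-127). Nrip1 ranked 22nd of all genes by adjusted p at 25 nM RA and 19th at 1 µM RA. By log2 fold change it ranked 92nd and 87th from the top.

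A gene was called changed at an adjusted p under 0.1. With 25 nM RA 2 of the 7 coregulators were called, both higher. Of all genes tested 8.05% were called, with 4.5% higher and 3.55% lower. With 1 µM RA 4 of the 7 were called, 2 higher and 2 lower, where the share of all genes was 19.7%, with 8.54% higher and 11.2% lower. These were 1293 and 1690 genes, against 976 and 1955 when counts were scaled by their totals alone. Both comparisons use the same DMSO samples, so that they are not independent of each other. Nrip1 was also the only one of the 7 with a log2 fold change above 1. Genes that were called with such a change and a mean RPKM above 1 in the RA-treated samples made up 0.442% of those tested at 25 nM RA and 0.568% at 1 µM RA.

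**Figure D1:**
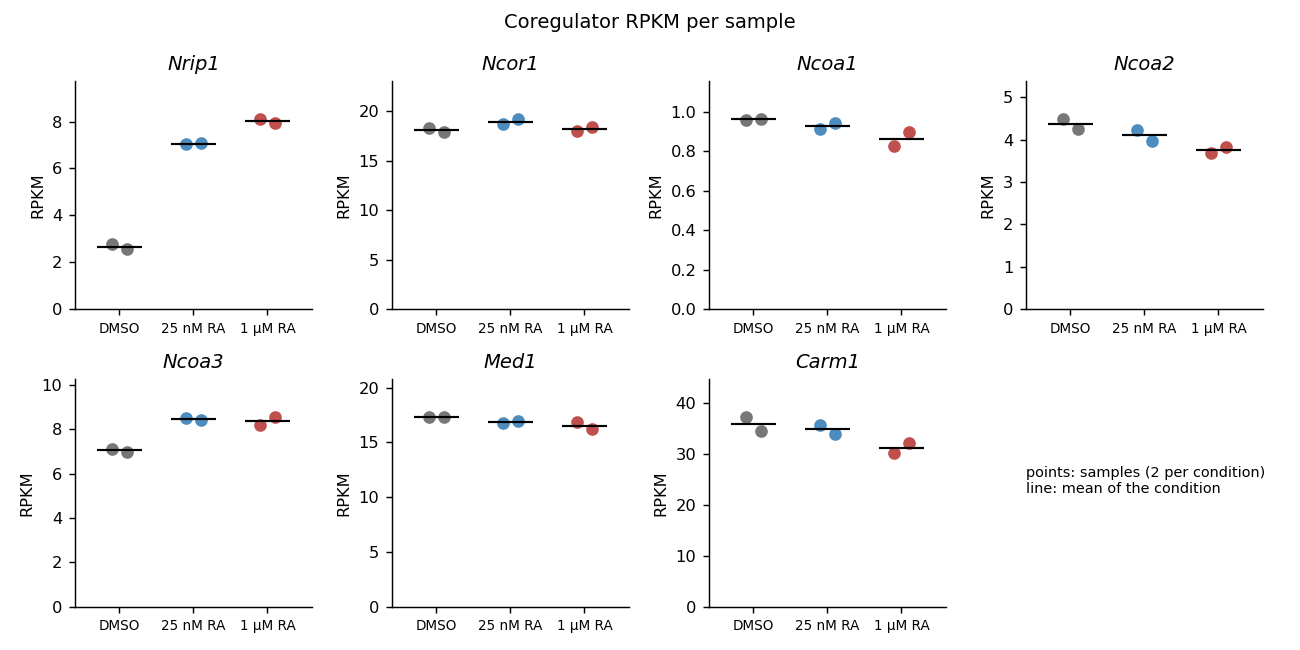
RPKM of each coregulator (vertical axes, each from 0) in the 6 samples by condition (horizontal axes). Points are samples, 2 per condition, and lines are means. Nrip1 lies between 2.563 and 2.757 in DMSO and between 7.026 and 8.109 with RA, and the other 6 genes move by much less on their own axes.

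Of the p160 coactivators, Ncoa3 was higher with RA, Ncoa2 was lower with 1 µM RA, and Ncoa1 was called in neither comparison. Ncoa3 (chr2:165992637-166073242, plus strand), the most abundant of the 3 in these cells, had an RPKM of 7.093 and 6.994 in DMSO, 8.526 and 8.434 at 25 nM and 8.193 and 8.563 at 1 µM. The 4 RA-treated samples lay above both DMSO samples, while the samples of the 2 doses overlapped. On the log2 scale Ncoa3 rose by 0.26 with the lower dose (SE 0.051, interval 0.16 to 0.36, edgeR adjusted p = 1.43e-05). The rise with the higher dose was 0.24, or 18.3% (interval 0.14 to 0.34, edgeR adjusted p = 4.84e-05). The change was thus much smaller than that of Nrip1 but was larger than the spread between dishes, and its call held under every alternative tried at both doses.

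Ncoa2 (chr1:13139105-13374083, minus strand) had an RPKM of 4.49 and 4.26 in DMSO, 4.237 and 3.979 at 25 nM and 3.692 and 3.823 at 1 µM. Both doses lay below DMSO in all samples, by a narrow margin at 25 nM RA. The difference was not called at 25 nM RA (log2 fold change -0.098, edgeR adjusted p = 0.446). Ncoa2 fell by 14.6% at 1 µM RA (log2 -0.23, SE 0.058, edgeR adjusted p = 0.0012). Long transcripts as a class were slightly lower at this dose. The median log2 fold change ran from 0.05 in the shortest of 5 equal classes of genes to -0.05 in the longest, those above 4629 bases, to which Ncoa2 belongs with a length of 8242 bases. With a correction for length the fall of Ncoa2 was -0.14 on the log2 scale and no longer called (edgeR adjusted p = 0.103).

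Ncoa1 (chr12:4247362-4477182, minus strand) was the least abundant of the 7 genes, with an RPKM of 0.9618 and 0.9644 in DMSO, 0.9116 and 0.9423 at 25 nM and 0.8268 and 0.9001 at 1 µM. These values rest on 257 to 363 estimated counts per sample. All RA-treated samples lay below both DMSO samples, and the difference was called at neither dose. At 1 µM RA the log2 fold change was -0.16, with an interval from -0.35 to 0.02 (edgeR adjusted p = 0.266), so that a fall of the size seen for Ncoa2 lies within it.

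Ncor1 (chr11:62316426-62457332, minus strand), the corepressor of unliganded receptors, and Med1 (chr11:98152155-98193293, minus strand), the receptor-binding subunit of Mediator, were not called at any dose. Ncor1 RPKM was 18.28 and 17.85 in DMSO, 18.67 and 19.2 at 25 nM and 18.04 and 18.38 at 1 µM. Its log2 fold changes were 0.06 (edgeR adjusted p = 0.681) and -0.01 (edgeR adjusted p = 0.906), and the intervals limit any change to between -0.04 and 0.16 at 25 nM RA and between -0.11 and 0.08 at 1 µM RA. Med1 RPKM was 17.34 and 17.33 in DMSO, 16.75 and 16.97 at 25 nM and 16.83 and 16.18 at 1 µM. The RA-treated samples lay below both DMSO samples at both doses, but by little, with log2 fold changes of -0.04 (edgeR adjusted p = 0.847) and -0.10 (interval -0.20 to 0.0015, edgeR adjusted p = 0.198).

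Carm1 (chr9:21546894-21589465, plus strand), encoding an arginine methyltransferase that modifies histone H3 and other coactivators, was the most abundant of the 7. Its RPKM was 37.35 and 34.59 in DMSO, 35.71 and 33.99 at 25 nM and 30.16 and 32.11 at 1 µM. The samples with 25 nM RA overlapped those of DMSO, and the samples with 1 µM RA lay below all others. At 25 nM RA the log2 fold change was -0.05 (edgeR adjusted p = 0.784). Carm1 fell by 14.0% at 1 µM RA (log2 -0.22, SE 0.054, interval -0.32 to -0.11, edgeR adjusted p = 0.000755). This call depended on DMSO replicate 1, the higher of the 2 control values: without it the log2 fold change was -0.17 (edgeR adjusted p = 0.103). The 3′ end of Carm1 overlaps 784 bases of Yipf2 on the opposite strand. The kit keeps strand, but whether counting used it is not given in the sources used here. Yipf2 itself had a log2 fold change of -0.04 at 1 µM RA (edgeR adjusted p = 0.832).

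**Figure D2:**
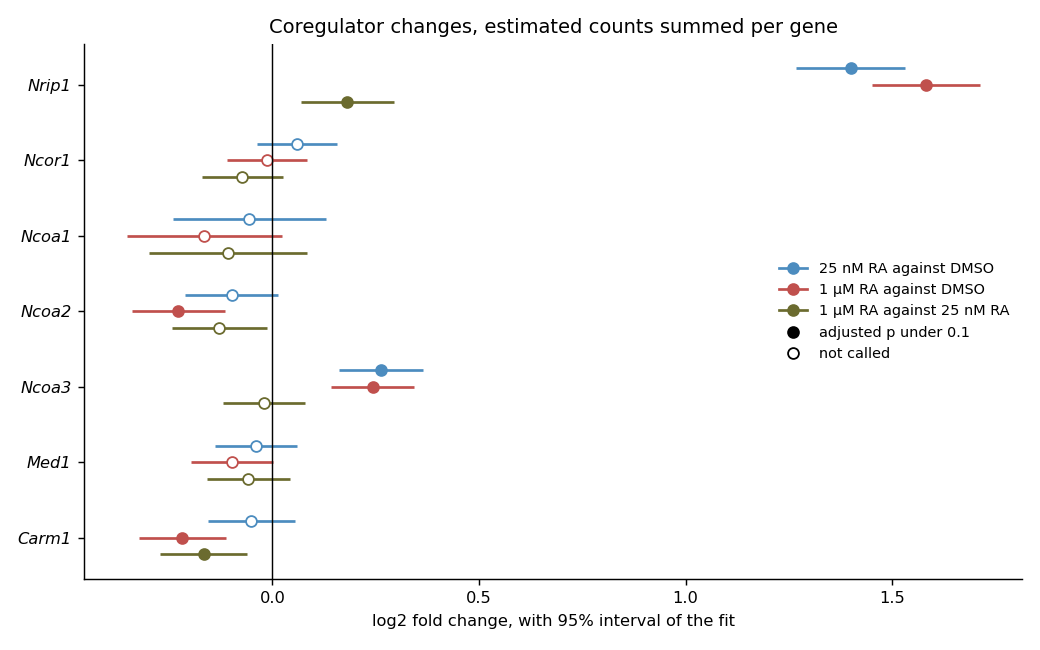
Log2 fold change of each coregulator (horizontal axis) with the 95% interval of the edgeR fit, for 25 nM RA against DMSO, 1 µM RA against DMSO and 1 µM RA against 25 nM RA. Filled points have an adjusted p under 0.1. Nrip1 lies at 1.40 and 1.58, and no other gene lies beyond 0.26 in either direction.

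Counted by sample values alone, RPKM with 25 nM RA did not overlap that of DMSO for 6 of the 7 genes, 3 higher and 3 lower, where 23.6% of all genes tested were higher without overlap and 20.8% lower. With 1 µM RA 2 were higher and 4 lower, where the shares of all genes were 29% and 25.4%. With only 2 samples per condition such separation was thus frequent among all genes.

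The doses were also compared directly. With 1 µM RA against 25 nM RA, 1 of the 7 genes was called higher and 1 lower, where 3.41% of all genes were called, 0.792% higher and 2.62% lower. Nrip1 was 1.13-fold higher (log2 0.18, SE 0.058, interval 0.07 to 0.29, edgeR adjusted p = 0.0651) and Carm1 was 10.9% lower (log2 -0.17, SE 0.054, edgeR adjusted p = 0.0727). Both lie close to the threshold and were lost with other tests: with edgeR's quasi-likelihood F test the adjusted p was 0.115 for Nrip1 and 0.105 for Carm1, and with DESeq2 it was 0.404 and 0.158. They were lost too without either sample of 25 nM RA and without replicate 1 of 1 µM RA. The other 5 genes were not called, with log2 differences between -0.13 for Ncoa2 (edgeR adjusted p = 0.309) and -0.02 for Ncoa3 (edgeR adjusted p = 0.913).

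RPKM is scaled by transcript length, so that levels can be set side by side between genes. In DMSO the order of mean RPKM was Carm1 (35.97 ± 1.96), Ncor1 (18.06 ± 0.306), Med1 (17.33 ± 0.00741), Ncoa3 (7.043 ± 0.0704), Ncoa2 (4.375 ± 0.163), Nrip1 (2.66 ± 0.137) and Ncoa1 (0.9631 ± 0.00189; SD, n = 2). With RA the only change of order was that Nrip1 moved above Ncoa2 at both doses, at 7.053 ± 0.0389 against 4.108 ± 0.182 with 25 nM RA and 8.02 ± 0.126 against 3.758 ± 0.0924 with 1 µM RA. No neighbours in this order had overlapping samples. The closest were Nrip1 and Ncoa3 at 1 µM RA, where the highest Nrip1 sample was 8.109 and the lowest Ncoa3 sample 8.193, a distance below the SD of Ncoa3 in this condition (0.262), so that these neighbours are not told apart.

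The balance between Nrip1 and the coactivators therefore moved mostly through Nrip1. The summed RPKM of the 3 p160 genes was 12.54 and 12.22 in DMSO, 13.67 and 13.36 at 25 nM and 12.71 and 13.29 at 1 µM. Against this sum, the RPKM of Nrip1 gave a ratio of 0.22 and 0.21 in DMSO, 0.514 and 0.53 at 25 nM and 0.638 and 0.597 at 1 µM. Its ratio to Ncor1 went from 0.151 and 0.144 to 0.376 and 0.369, and to 0.45 and 0.431. Within the p160 genes, Ncoa3 made up 56.5% and 57.2% of the sum in DMSO, 62.4% and 63.2% at 25 nM, and 64.5% in both samples at 1 µM. The share of Ncoa2 was 35.8% and 34.9%, 31.0% and 29.8%, and 29.0% and 28.8% in the same order. These are ratios of RNA levels and no protein was measured.

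**Figure D3:**
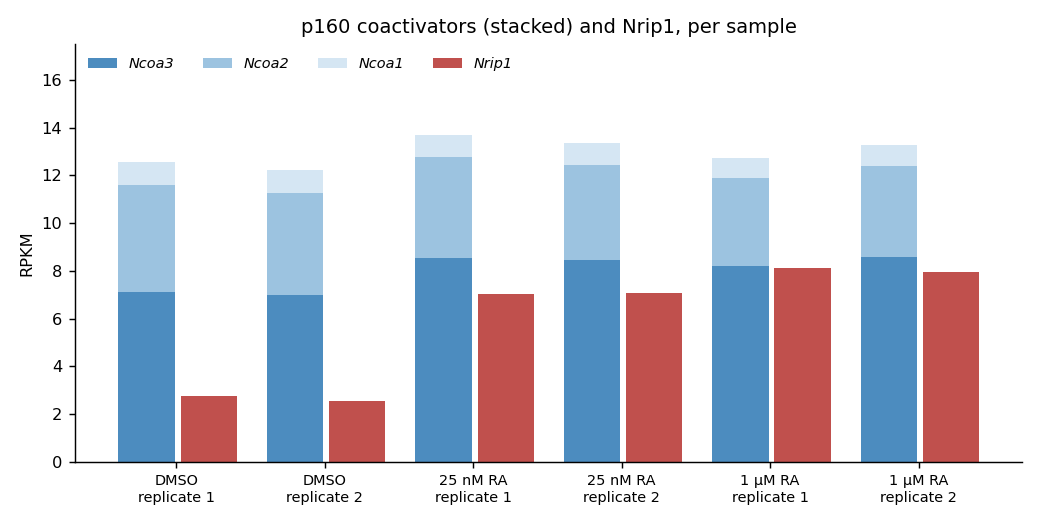
RPKM (vertical axis, from 0) of the p160 coactivators Ncoa3, Ncoa2 and Ncoa1, stacked, and of Nrip1 beside them, in each of the 6 samples. The stacked bars stay between 12.22 and 13.67 while the Nrip1 bar goes from 2.563 to 8.109.

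Ncor1, Ncoa2, Med1 and Carm1 have several RefSeq transcripts, among which the authors divided the reads by expectation-maximization. Exons that set transcripts of a gene apart are shown for the 2 coregulators that fell at 1 µM RA, from the GENCODE M21 annotation of mm10. Capitals mark the exon and lower case the 15 bases of its neighbour exons on each side in the spliced transcript, 5′ to 3′ on the strand of the gene.
Carm1 exon 15 of 16 in NM_021531, absent from NM_153141, chr9:21587851-21587919: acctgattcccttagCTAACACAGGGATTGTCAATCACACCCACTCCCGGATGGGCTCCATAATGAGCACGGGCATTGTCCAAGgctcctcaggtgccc
Ncoa2 exon 13 of 23 in NM_008678, absent from NM_001302702, chr1:13164896-13165102: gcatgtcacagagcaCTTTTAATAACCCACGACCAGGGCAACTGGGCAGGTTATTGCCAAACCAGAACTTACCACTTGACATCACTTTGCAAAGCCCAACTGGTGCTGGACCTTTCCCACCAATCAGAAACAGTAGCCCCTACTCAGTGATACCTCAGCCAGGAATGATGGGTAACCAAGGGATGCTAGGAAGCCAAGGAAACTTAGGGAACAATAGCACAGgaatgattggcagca

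Both exons are coding and keep the reading frame, with 69 bases (23 codons) in Carm1 and 207 bases (69 codons) in Ncoa2. Carm1 NM_021531, which includes exon 15, had an RPKM of 25.87 and 24.92 in DMSO, 25.62 and 23.44 at 25 nM and 19.96 and 21.57 at 1 µM. The transcript without it, NM_153141, had 11.48 and 9.668, 10.1 and 10.55, and 10.21 and 10.54 in the same order. The former fell by 18.7% at 1 µM RA (log2 -0.30, SE 0.069, edgeR over transcripts, adjusted p = 0.000614) and the latter had a log2 fold change of -0.04 (SE 0.10, edgeR adjusted p = 0.935). Against 25 nM RA, NM_021531 was also lower at 1 µM RA (log2 -0.24, edgeR adjusted p = 0.0404). For transcripts no alternative was tried in this comparison of doses. The difference between the 2 transcripts was itself not tested, and their intervals, -0.43 to -0.16 and -0.23 to 0.16, overlap. NM_021531 made up 69.3% and 72.0% of Carm1 RPKM in DMSO, 71.7% and 69.0% at 25 nM, and 66.2% and 67.2% at 1 µM.

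For Ncoa2 the transcript without exon 13, NM_001302702, had an RPKM of 1.189 and 1.067 in DMSO, 1.285 and 0.7803 at 25 nM and 0.8331 and 0.719 at 1 µM. The transcript with it, NM_008678, had 3.301 and 3.193, 2.951 and 3.199, and 2.859 and 3.104. Neither was called at 1 µM RA, with log2 fold changes of -0.55 (SE 0.26, edgeR adjusted p = 0.262) and -0.13 (SE 0.091, edgeR adjusted p = 0.544), although the gene sum was. The call of NM_001302702 depended on the 25 nM RA samples in the fit: without replicate 1 of them its adjusted p (edgeR) was 0.0453 and without replicate 2 it was 0.0391, at log2 fold changes of -0.55 and -0.54. The samples with 25 nM RA were far apart for NM_001302702, and the part of the division of reads between transcripts in this spread was not tested.

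None of the 3 transcripts of Ncor1 or of Med1 was called at either dose. The largest difference among them at 1 µM RA was for Med1 NM_001080118, with an RPKM of 5.178 and 5.062 in DMSO and 3.844 and 4.84 with 1 µM RA (log2 -0.25, edgeR adjusted p = 0.255). This value rested on single libraries: without 1 µM RA replicate 2 it was -0.41 and called (edgeR adjusted p = 0.000499), and without 1 µM RA replicate 1 it was -0.095 (edgeR adjusted p = 0.784). In all, 2 of the 13 transcripts were called at 25 nM RA, those of Nrip1 and Ncoa3, where 3.69% of the 22074 transcripts tested were called, 2.25% higher and 1.44% lower. At 1 µM RA 3 were called, Carm1 NM_021531 being the third, where the share was 8.3%, with 3.8% higher and 4.5% lower. In the direct comparison of doses the 1 call was Carm1 NM_021531, where 1.8% of transcripts were called, 0.707% higher and 1.1% lower.

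**Figure D4:**
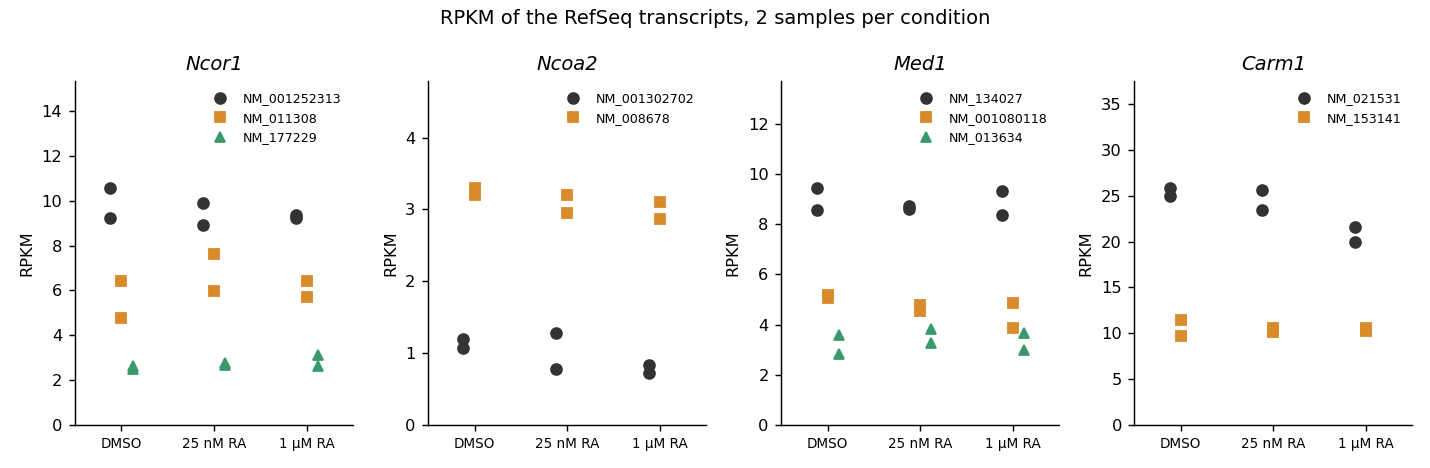
RPKM of each RefSeq transcript (vertical axes, from 0) of the 4 genes with several transcripts, by condition (horizontal axes). Points are samples, 2 per condition. Carm1 NM_021531 lies between 23.44 and 25.87 in DMSO and 25 nM RA and between 19.96 and 21.57 with 1 µM RA, and the duplicates of several other transcripts lie far apart.

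The receptors that these coregulators bind were compared in the same fit. Rara rose by 1.55 (SE 0.068) on the log2 scale with 25 nM RA and by 1.64 with 1 µM RA (edgeR adjusted p = 1.03e-117 and 2.85e-134), from a mean RPKM of 3.42 to 10.14 and 10.81, a change close in size to that of Nrip1. Rarb RPKM went from 0.2373 in DMSO to 5.278 and 6.772. Rarg was called with 25 nM RA only (log2 0.26, edgeR adjusted p = 0.000517), from 10.95 to 13.12 and, with 1 µM RA, 12.01. Between the doses themselves Rarg was not called (log2 -0.13, edgeR adjusted p = 0.295). Of the retinoid X receptors, Rxra was lower with 1 µM RA (log2 -0.24, edgeR adjusted p = 0.00339). Its call was lost with limma and without DMSO replicate 1 or 1 µM RA replicate 1. Rxrb and Rxrg were not called against DMSO.

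A further 77 coregulator genes were taken as lists by function, and 76 of them were tested. With 25 nM RA 4 of the 76 were called, all lower, a share of 5.26% where 8.05% of all genes were called. The median log2 fold change was -0.01, and that of all genes was 0.00. With 1 µM RA 23 were called, 5 higher and 18 lower, a share of 30.3% where 19.7% of all genes were called, and the median was -0.03. This count rested in part on single libraries: it was 10 without DMSO replicate 1 and between 16 and 20 without any other sample of the 2 conditions. Without DMSO replicate 1 the share of listed genes called was 13.2% where that of all genes was 12.7%, so that the listed genes then lay at the background. Without another sample it was 21.1% to 26.3% where that of all genes was 12.5% to 18.3%. Cited2, Crebbp, Ep300, Pprc1, Pelp1, Med12, Med13l and Med25 were called lower at 1 µM RA under each of 16 alternatives that kept the threshold of 0.1. The lists were chosen with earlier results of these data known, and no test of a list was made.

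Among the partners of the p160 proteins, the acetyltransferase genes Crebbp and Ep300 were lower. Crebbp RPKM was 7.618 and 7.485 in DMSO, 6.472 and 6.619 at 25 nM and 5.122 and 5.221 at 1 µM. It fell by 0.21 on the log2 scale with 25 nM RA (edgeR adjusted p = 0.00167) and by 0.55 with 1 µM RA (edgeR adjusted p = 2.89e-23). Ep300, its close relative, had a log2 fold change of -0.16 with 25 nM RA (edgeR adjusted p = 0.107) and fell by 0.44 with 1 µM RA (edgeR adjusted p = 8.01e-11). Both were also lower at 1 µM RA than at 25 nM RA (edgeR adjusted p = 2.05e-07 and 0.00141). Over the alternatives for that comparison the adjusted p reached 0.128 for Crebbp, whose call was lost with limma, and 0.281 for Ep300, lost with limma and without 25 nM RA replicate 2. Kat2a (log2 -0.16) and Ncoa6 (log2 -0.24) were lower with 1 µM RA as well, and Ncoa4 was higher (log2 0.16). The call of Kat2a was lost without DMSO replicate 1 and with a correction for GC content, and that of Ncoa4 without DMSO replicate 2. That of Ncoa6 was lost without DMSO replicate 2, without 1 µM RA replicate 1, and with DESeq2 and limma. Over all alternatives (edgeR, DESeq2 and limma) the adjusted p reached 0.189 for Kat2a, 0.283 for Ncoa6 and 0.119 for Ncoa4. Of the 7 arginine methyltransferase genes related to Carm1, 0 were called at either dose by edgeR or DESeq2, and 0 had an unadjusted edgeR p under 0.05. By edgeR 8.05% and 19.7% of all genes were called, so that 0 of 7 is no result about them.

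Of the 32 other Mediator genes, 1 was called at 25 nM RA (Med13, log2 -0.14, edgeR adjusted p = 0.0785, lost without any 1 of the 4 samples) and 8 at 1 µM RA, 2 higher and 6 lower. These shares, 3.12% and 25.0%, stand beside 8.05% and 19.7% of all genes. Those lower were Med25 (log2 -0.33), Med15 (log2 -0.33), Med13l (log2 -0.24), Med12 (log2 -0.23), Med26 (log2 -0.22) and Med13 (log2 -0.16). Med6 and Med7 were higher by 0.14 each. The calls of Med6, Med7, Med13, Med15 and Med26 were lost without DMSO replicate 1. Of 16 alternatives, those of Med6 and Med7 were lost under 10 each, among them DESeq2 and total counts. Those of Med26, Med13 and Med15 were lost under 4, 3 and 1. The other 24 Mediator genes, like Med1, were not called.

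Of the corepressor genes, the partners of NCOR1 in its deacetylase complex, Hdac3, Tbl1x, Tbl1xr1 and Gps2, were not called at either dose. Nor were the 5 genes of other ligand-dependent corepressors and CtBP proteins. Sin3a was lower (log2 -0.18) and Hdac2 higher (log2 0.13) with 1 µM RA. Of 16 alternatives, the call of Sin3a was lost under 1, leaving out DMSO replicate 1. That of Hdac2 was lost under 8, among them total counts, the corrections for length and GC content and leaving out any 1 of the 4 samples. Across all 13 listed corepressor genes 0 were called at 25 nM RA by edgeR or DESeq2. At that dose 1 had an unadjusted edgeR p under 0.05. The 2 named were those called at 1 µM RA (15.4%). The shares of all genes called were 8.05% and 19.7%, so that few calls among 13 genes are no result about them.

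Of the remaining genes, Cited2, which encodes a CREBBP and EP300 binding protein, had the largest fall. Its RPKM was 11.23 and 10.37 in DMSO, 7.988 and 7.288 at 25 nM and 6.354 and 5.984 at 1 µM; its log2 fold changes were -0.51 and -0.82 (edgeR adjusted p = 2.64e-10 and 2.06e-25). Its relative Cited1 was also lower at both doses (log2 -0.34 and -0.41), calls that were lost without DMSO replicate 1. The call at 25 nM RA was also lost without 25 nM RA replicate 2 and with DESeq2 and limma. The PGC-1 family genes Pprc1 (log2 -0.37, edgeR adjusted p = 4.41e-10) and Ppargc1b (log2 -0.34, edgeR adjusted p = 0.0355) were called lower with 1 µM RA, and Ppargc1a had too few reads to be tested. Pelp1 (log2 -0.31), Tdg (log2 -0.26) and Rbm14 (log2 -0.17) were lower and Ccar1 higher (log2 0.14) with 1 µM RA. Without DMSO replicate 1 the calls of Ppargc1b, Tdg, Rbm14 and Ccar1 were lost. Of 16 alternatives, that of Ccar1 was lost under 9, those of Ppargc1b and Tdg under 4 each and that of Rbm14 under 1.

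**Figure D5:**
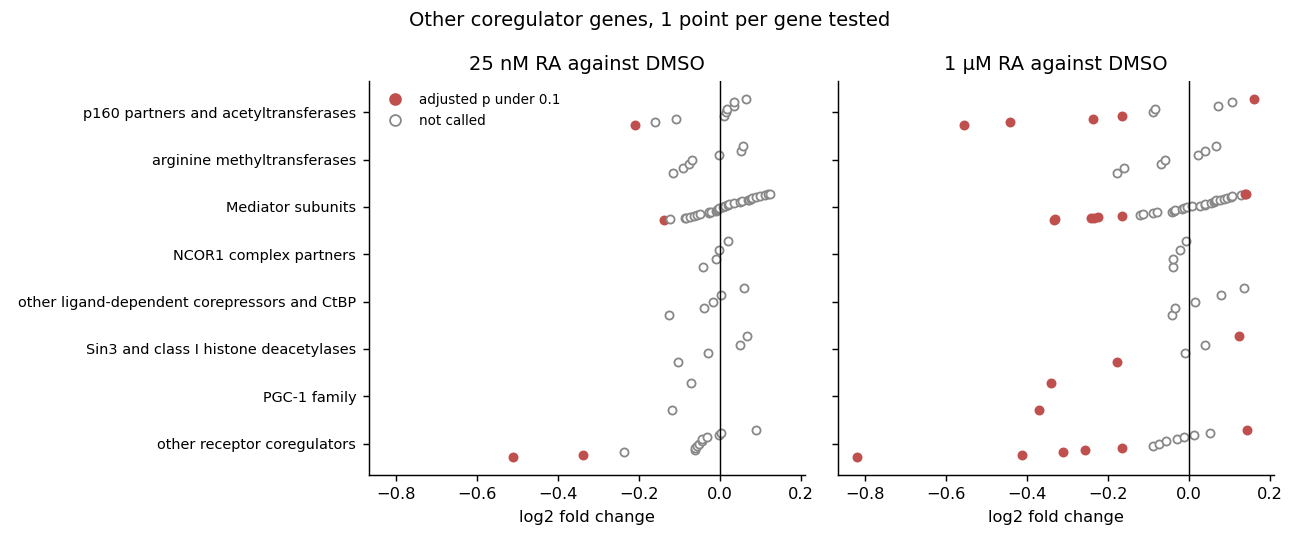
Log2 fold change (horizontal axes) of the 76 other coregulator genes tested, 1 point per gene, by list (vertical axis), with 25 nM RA (left) and 1 µM RA (right) against DMSO. Filled points have an adjusted p under 0.1: 4 with 25 nM RA, all lower, and 23 with 1 µM RA, of which 18 are lower.

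The median log2 fold change at 1 µM RA also moved with base composition, from 0.05 in the class of genes with the lowest GC content to -0.05 in the class with the highest, above 56.24%, of 5 equal classes. Carm1, at 57.1% GC, is in the highest class, and its log2 fold change with a correction for GC content was -0.17 (edgeR adjusted p = 0.00462). Of the 76 listed genes, 20 were called with the correction for length (26.3%, where 18.5% of all genes were called) and 18 with that for GC content (23.7%, where 20.8% were).

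Genes whose pattern over the 6 samples was most like that of Nrip1 were sought by the Pearson correlation of log2 CPM, as a description over 3 conditions that share their libraries. The 5 nearest were Arg1, Dhrs3, Lrrk1, Zfp503 and Nt5e, with r from 0.9991 to 0.9998, and 90 genes had r above 0.99. They share the pattern of a large step to 25 nM RA and a smaller one to 1 µM RA at different sizes. Lrrk1 had log2 fold changes of 0.72 and 0.83, Nt5e of 1.44 and 1.56, Arg1 of 2.96 and 3.35, Zfp503 of 3.80 and 4.33, and Dhrs3 of 4.91 and 5.57. For Ncoa3 the nearest were Zcchc24, Ager, Mbp, Lzts2 and Epb4.1l1, with r from 0.9958 to 0.9983, and 21 genes had r above 0.99. Here the step to 25 nM RA was followed by no further rise, as for Ncoa3 itself, with log2 fold changes of 0.30 and 0.29 for Lzts2, 0.73 and 0.70 for Zcchc24, and 0.93 and 0.83 for Ager.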

How the data were processed

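RNA-seq of 6 samples was used, 2 per condition, grouped by the sample labels. Per the labels and methods, total RNA was depleted of ribosomal RNA, and the authors checked reads with FastQC 0.11, aligned them to mm10 (TopHat2 2.0.13, Bowtie2 2.2.5.0) and used expectation-maximization to assign reads to RefSeq transcripts (Partek 6.6 is named in the processing notes). The estimated counts deposited by the authors are not normalized. The RPKM values deposited by the authors are scaled by transcript length and reads per sample.

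Estimated counts were summed per gene, rounded and fitted in edgeR 4.0.16 (R 4.3.3) with TMM factors (0.989 to 1.008), filterByExpr and the likelihood ratio test, taken from the methods, in 1 fit of all 6 samples and Benjamini-Hochberg adjustment over 15143 genes. Transcripts were fitted likewise over 22074. The threshold was an adjusted p under 0.1, SDs are over duplicates, and 95% intervals are 1.96 SE. Permutation tests were left out, since 2 against 2 samples cannot give a small p. The chi-square per gene between duplicates was 3.82 to 5.88, and all samples were counted separately.

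Named genes are all 7 coregulators, of each list at most 5 genes per direction with the smallest adjusted p, the RA and retinoid X receptors, Cyp26a1, and the 5 genes most correlated with each coregulator called at both doses. Med26, Hdac3, Tbl1x, Tbl1xr1, Gps2, Ppargc1a, Yipf2 and the cell type markers were named beside a count, a sum or an overlap, after their values were seen. The genes and lists were chosen with earlier results of these data known. For 1 coregulator gene no result is reported here, and it was removed from the lists before counting.

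Alternatives were edgeR's quasi-likelihood F test, DESeq2 1.42.0, limma 3.58.1 on log2(RPKM + 0.1), other scalings and filters, counts not rounded, only the 4 samples compared, a replicate block, an adjusted p under 0.05 and leaving out each sample. Corrections for transcript length and for GC content (known for 98.6% of genes tested) were loess offsets. These corrections, and leaving out samples for the listed genes and transcripts, were chosen after seeing the data. Intervals cover the spread between dishes and counting error only. Gene positions are those of the files, sequences are from GENCODE M21 and RefSeq, and Python 3.11.15, pandas 2.3.3, numpy 2.4.6 and matplotlib 3.10.9 served for tables and plots.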

Additional observations from a re-analysis of the deposited data

Results flagged for a closer look

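In the direct test of 1 µM RA against 25 nM RA 2 of the 7 coregulators were called, where 3.41% of all genes were. With the quasi-likelihood F test or DESeq2 0 of the 7 were called. Nrip1 was higher at 1 µM RA by 0.18 on the log2 scale (edgeR adjusted p = 0.0651), with both samples above both samples of 25 nM RA. Carm1 differed by -0.17 (edgeR adjusted p = 0.0727), with both samples below both samples of 25 nM RA. Such separation was frequent, with 22.7% of all genes higher and 20.8% lower without overlap. Over the alternatives tried the adjusted p ran from 0.0244 to 0.482 for Nrip1 and from 0.0424 to 0.566 for Carm1.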

How the results depend on the processing

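Nrip1 and Ncoa3 were called higher at both doses under every alternative tried for them, with log2 fold changes from 1.36 to 1.63 and from 0.22 to 0.32. The call of Ncoa2 at 1 µM RA was lost with the length correction (-0.14, edgeR adjusted p = 0.103), that of Carm1 without DMSO replicate 1 (-0.17), and Med1 was called with the GC correction (-0.11, edgeR adjusted p = 0.0613). Between doses, 0 of the 7 genes were called with the quasi-likelihood F test, DESeq2, limma on log2 RPKM, an adjusted p under 0.05 or the replicate block. In the main edgeR fit, by its likelihood ratio test, 3 of the 7 had an unadjusted p under 0.05. With no filter on low counts or the GC correction 1 was called. Leaving out 1 sample gave 0 to 2. Ncor1 at 1 µM RA, not called, turned positive with limma (0.0118), the length correction (0.0794) and without 1 µM RA replicate 1 (range -0.0332 to 0.0054). Ncoa3 between doses, not called, turned positive with the length correction (0.0216) and without 1 µM RA replicate 1 (range -0.0443 to 7.77e-05). The causes of these changes were not tested.

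All genes called numbered 567 (385 higher, 182 lower) with DESeq2 and 631 (442 higher, 189 lower) with limma at 25 nM RA, against 1219, and 799 to 854 without 1 sample. With 1 µM RA they were 1594 with DESeq2, against 2983, and 1922 to 2827 without 1 sample. Between doses they were 336 with the quasi-likelihood F test, 158 with DESeq2, 340 at an adjusted p under 0.05 and 20 with limma (10 higher, 10 lower), against 516, and 205 to 577 without 1 sample. Of the listed coregulators, DESeq2 and limma each called 2 at 25 nM RA, against 4, and without 1 sample 10 to 20 were called at 1 µM RA, against 23. The lone sample left in a condition is then assumed to vary like the others. Replicate numbers did not pair the samples, with correlations of deviations of -0.0409 to 0.0484 and -0.0615, and the replicate block, with an adjusted p of 0.115 for Nrip1 and 0.104 for Carm1, changed no other call of the 7 genes. Ncoa1 had 257 to 363 counts per sample and an interval from -0.35 to 0.02 at 1 µM RA, and the part of depth in that width was not tested.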
